A study of Rattus norvegicus with 6 samples.

Results

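The 10 genes described here make steroid hormones or convert them, and were measured in kidney cortex taken from 6 male rats of the Sprague-Dawley strain. They were chosen by name, and the accession of each probe tied it to its gene. This gave 15 probes for the 10 genes, of 61537 probes for 15639 named genes in all. The treated group was 3 rats given p-nitroanisole, a nitrobenzene that carries a methoxy group, at 500 mg/kg per day for 4 weeks. The other group was 3 rats given corn oil, the vehicle, for the same time. All were Crl:CD(SD) animals bought at 5 weeks of age, no genetic change is named in the labels, and each sample had 1 array of Cy3-labelled RNA. The list was drawn up because Hsd3b1 and Cyp11a1 had been seen to be higher with treatment in these same arrays. Differences between the groups are therefore given for the 10 genes as a description, without a test.

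Steroid hormones are made from cholesterol. In the adrenal cortex and gonads cholesterol is carried into mitochondria by Star, cut to pregnenolone by Cyp11a1 with electrons from Fdx1, and turned into progesterone by a 3-beta-hydroxysteroid dehydrogenase such as Hsd3b1. Mc2r is the receptor for ACTH, the pituitary hormone that drives this pathway in the adrenal cortex, and Akr1b7 is an aldo-keto reductase that ACTH induces in the mouse adrenal cortex. The kidney is better known for converting steroids that reach it in the blood. Hsd11b1 regenerates active glucocorticoid, Hsd17b2 and Hsd17b11 oxidise 17-beta-hydroxysteroids, and Srd5a1 reduces testosterone and other steroids at the 5-alpha position. The adrenal gland lies against the upper pole of the kidney, so adrenal markers are reported beside the kidney's own.

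The promoters of Cyp11a1 and Hsd3b1 are shown because these were the genes with the largest differences. The steroidogenic factor Nr5a1 is known to bind a short element that can hold the letters AGGTCA, and capitals mark these letters on either strand. Both sequences are from RefSeq on the build GRCr8, run 5′ to 3′ on the gene's strand, and cover 250 bases before to 50 after the annotated start. Cyp11a1 lies at chr8:67318415-67318714 on the plus strand and Hsd3b1 at chr2:188864645-188864944 on the minus strand.
Cyp11a1: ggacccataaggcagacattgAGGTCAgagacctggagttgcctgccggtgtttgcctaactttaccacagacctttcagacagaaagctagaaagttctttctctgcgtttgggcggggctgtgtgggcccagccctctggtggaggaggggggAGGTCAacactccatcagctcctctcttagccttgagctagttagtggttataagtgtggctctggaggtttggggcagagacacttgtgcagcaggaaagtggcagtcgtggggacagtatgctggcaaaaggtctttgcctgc
Hsd3b1: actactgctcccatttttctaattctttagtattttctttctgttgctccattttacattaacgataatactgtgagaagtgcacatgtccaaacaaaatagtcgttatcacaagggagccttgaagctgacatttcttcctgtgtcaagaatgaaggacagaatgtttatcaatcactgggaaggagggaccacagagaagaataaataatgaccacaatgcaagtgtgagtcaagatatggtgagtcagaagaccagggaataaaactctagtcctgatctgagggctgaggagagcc

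The Cyp11a1 promoter held AGGTCA at -229 to -224 and at -95 to -90 from the start, both on the strand of the gene. The Hsd3b1 promoter did not hold these letters in this window. Forms of the element without these letters were not sought in either promoter. Of the 7 genes of the list in the promoter table, 3 held AGGTCA, the other two being Fdx1, at -201 to -196, and Akr1b7, on the opposite strand at -48 to -43. The letters occurred in 16.2% of all 33469 promoters of that length. The longer form AAGGTCA, which contains AGGTCA, occurred in 4.61% of all promoters and, on the list, in that of Akr1b7. Star, Hsd17b2 and Hsd11b1 had no entry. A match of letters is a description and not a binding site.

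Levels are given as the log2 of the processed intensity over the array's own 75th percentile. A level of 0 is thus the 75th percentile of that array, and levels of different probes cannot be compared, since probes bind with different strength. The lowest level that the scanner software called well above background lay between -5.98 and -5.49 on the 6 arrays. Between 66.4% and 69.2% of probes passed on an array, and no spot was saturated. Arrays correlated at 0.989 to 0.994 across genes and unnamed probes, which are not independent replicates. The file headers put treated replicate 3 on a second slide, and the other 5 arrays on the first. Treated replicates 1 and 2 were in row 2 of the first slide and the other arrays in row 1 of theirs. As a check of the labelled tissue, all 9 renal cortex markers were well above background on all 6 arrays, Lrp2 and Slc34a1 of the proximal tubule among them. The labels give 3 animals to each treatment.

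Of the 10 genes, 7 had a probe well above background on all 3 arrays of a group and entered the fit. Star, Mc2r and Akr1b7 did not reach that level on any of the 6 arrays. Hsd3b1 and Cyp11a1 were the 2 genes of the 7 whose groups did not overlap, and both were higher with p-nitroanisole. In the fit as a whole, the groups did not overlap in 22.2% of the 32203 rows, 11.9% being higher with treatment. No test is read from that comparison, because the list was built on it.

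**Figure D1:**
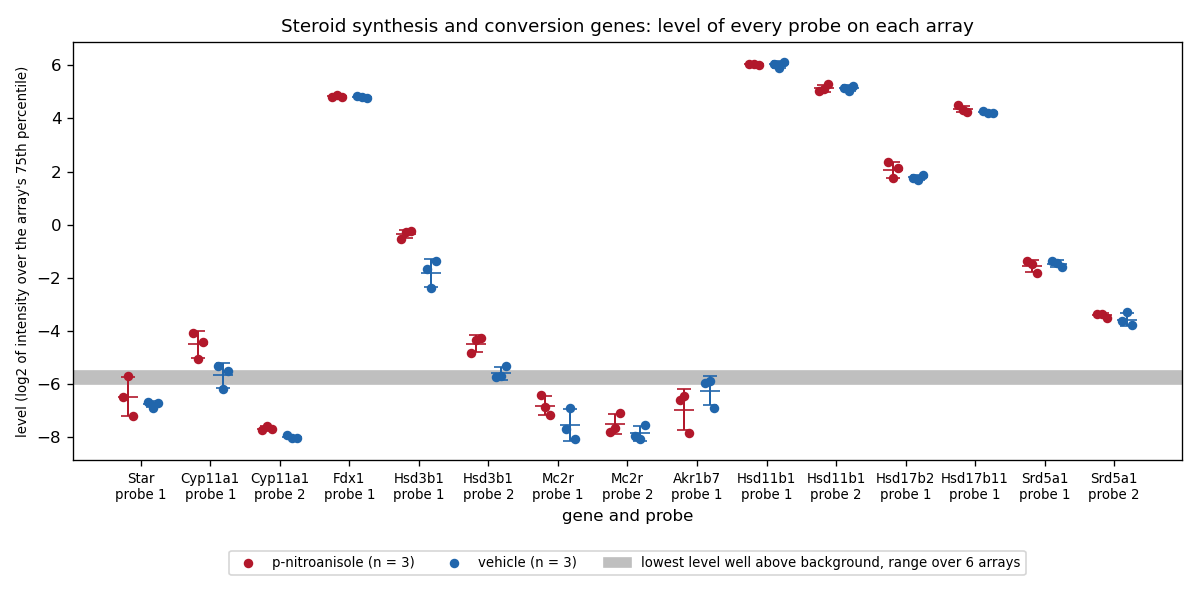
Level of each of the 15 probes on each array (y axis, log2 of intensity over the array's 75th percentile), with the 3 p-nitroanisole arrays left of the 3 vehicle arrays and bars for the mean and SD. The grey band spans the lowest level well above background on the 6 arrays, -5.98 to -5.49. Star, Mc2r and Akr1b7 lie in or below it in both groups, while Hsd3b1 and the first Cyp11a1 probe are higher with p-nitroanisole.

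Hsd3b1, which turns pregnenolone into progesterone, had a level of -0.52, -0.27 and -0.23 on the 3 p-nitroanisole arrays, against -1.69, -2.40 and -1.36 on the 3 vehicle arrays. The corresponding processed intensities were 643, 729 and 814 with p-nitroanisole, against 318, 179 and 382 with vehicle. Every treated array was above every vehicle array, and vehicle replicate 2 was the lowest of the 6. The mean level was -0.34 ± 0.16 with p-nitroanisole and -1.81 ± 0.53 with vehicle (SD, n = 3 each), a log2 difference of 1.47 (SE 0.27) or 2.78-fold. All 6 arrays were well above background for this probe, the vehicle arrays included. In bulk tissue a change in the number of cells of a type and a change in RNA per cell cannot be told apart.

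The second Hsd3b1 probe was much dimmer and gave the same direction. Its level was -4.83, -4.33 and -4.26 with p-nitroanisole, against -5.74, -5.71 and -5.31 with vehicle, a log2 difference of 1.11 (SE 0.19). It was well above background on 3 of 3 treated arrays and on 1 of 3 vehicle arrays, so the lower side of this difference rests on dim spots. The groups did not overlap on either Hsd3b1 probe, but the dimmer one passed the background filter through the treated arrays only. Of the 324 rows of the fit that passed in this way, 36.1% had groups that did not overlap. The second probe is thus given as a description and not as support.

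Cyp11a1, the side-chain cleavage enzyme that opens steroid synthesis, was dim on every array. Its brighter probe had a level of -4.07, -5.04 and -4.40 with p-nitroanisole, against -5.30, -6.19 and -5.49 with vehicle. In processed intensity these were 55.1, 26.6 and 45.3 with p-nitroanisole, against 25.9, 12.9 and 21.8 with vehicle. The lowest treated array lay just above the highest vehicle array, and vehicle replicate 2 was again the lowest. The mean was -4.50 ± 0.50 with p-nitroanisole and -5.66 ± 0.47 with vehicle (SD, n = 3 each), a log2 difference of 1.16 (SE 0.33) or 2.23-fold. The probe was well above background on 3 of 3 treated and 2 of 3 vehicle arrays. It entered the fit through the treated arrays only. The 324 rows that entered in this way had a median log2 difference of 0.58, and in 36.1% of them the groups did not overlap. With the normexp background correction, which draws dim intensities together, the difference of Cyp11a1 was 0.50, against 1.21 for Hsd3b1.

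The second Cyp11a1 probe was not well above background on any array. Its levels were -7.74, -7.58 and -7.68 with p-nitroanisole, against -7.93, -8.01 and -8.02 with vehicle. The treated values were all higher, but so were those of 45.4% of the 15958 probes that were well above background on 0 of 6 arrays, with a median log2 difference of 0.27. No fold is given for it. The difference of Cyp11a1 thus rests on 1 dim probe.

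Fdx1, the ferredoxin that passes electrons to mitochondrial cytochromes P450 in many tissues, was far above background on every array. Its level was 4.79, 4.88 and 4.80 with p-nitroanisole, against 4.85, 4.80 and 4.78 with vehicle. The groups overlapped, and the log2 difference was 0.02 (SE 0.06).

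Star, which brings cholesterol to Cyp11a1, had levels of -6.50, -5.71 and -7.19 with p-nitroanisole, against -6.66, -6.88 and -6.71 with vehicle. None of these was well above background. Mc2r, the ACTH receptor, had levels of -6.42, -6.85 and -7.15 with p-nitroanisole, against -7.69, -6.89 and -8.06 with vehicle, on its brighter probe. The groups overlapped for Star and on both Mc2r probes. Akr1b7 ran the other way, with -6.60, -6.44 and -7.84 in treated rats, against -5.94, -5.90 and -6.88 in vehicle rats, again below the mark on every array and with overlapping groups. For these 3 genes both groups were in the range of background, so no fold is given.

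The steroid-converting genes were well above background on every array. Hsd11b1, which regenerates corticosterone in the rat, had levels of 6.05, 6.06 and 6.01 with p-nitroanisole, against 6.05, 5.90 and 6.13 with vehicle. Its log2 difference was 0.02 (SE 0.08) and that of its second probe 0.01 (SE 0.10). Hsd17b2, which oxidises estradiol and testosterone, had levels of 2.35, 1.75 and 2.11 with p-nitroanisole, against 1.76, 1.70 and 1.88 with vehicle. Treated replicates 1 and 3 were above all vehicle arrays and treated replicate 2 was within their range. The log2 difference of Hsd17b2 was 0.29 (SE 0.16), with 0.15 without treated replicate 1 and 0.45 without treated replicate 2.

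Hsd17b11, a 17-beta-hydroxysteroid dehydrogenase found on lipid droplets, had levels of 4.49, 4.33 and 4.25 with p-nitroanisole, against 4.26, 4.20 and 4.22 with vehicle. The groups overlapped only through treated replicate 3 and vehicle replicate 1, and the difference was 0.13 (SE 0.08), with 0.07 without treated replicate 1. Srd5a1, the steroid 5-alpha-reductase, had levels of -1.37, -1.47 and -1.82 with p-nitroanisole, against -1.36, -1.43 and -1.60 with vehicle. Its log2 difference was -0.09 (SE 0.14) on this probe and 0.17 (SE 0.14) on a dimmer one, so its 2 probes differed in sign, with overlapping groups on both.

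Over the 7 genes in the fit, 6 log2 differences were above 0 and the median was 0.13, beside 52.4% above 0 and a median of 0.01 over all 32203 rows. None of the 7 was among the 24 rows, 0.0745% of those tested, that limma called at an adjusted p under 0.05 (0.0497% higher and 0.0248% lower with treatment). Since the list was built on this comparison, nothing is read from these counts.

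**Figure D2:**
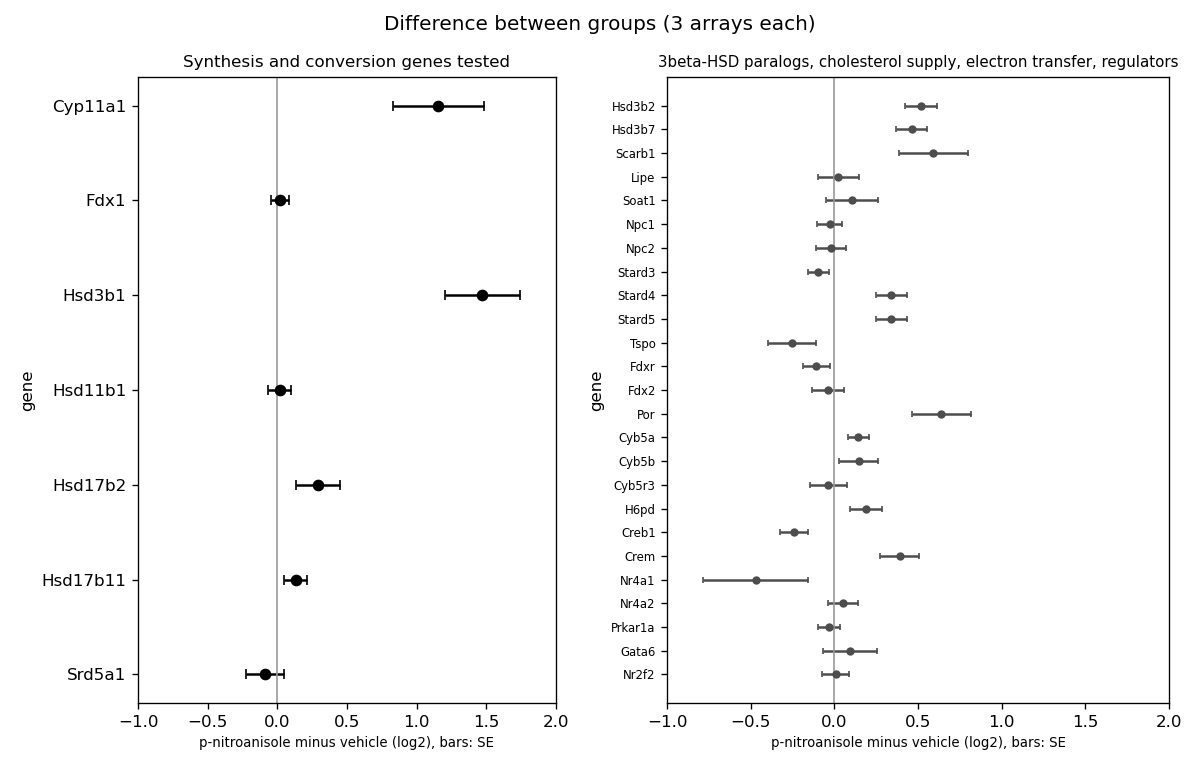
Log2 difference, p-nitroanisole minus vehicle (x axis), with bars for the SE of the fit, for the 7 tested synthesis and conversion genes on the left and for tested paralogs, cholesterol supply, electron transfer and regulator genes on the right, 1 gene not being shown. Hsd3b1 at 1.47 and Cyp11a1 at 1.16 stand furthest to the right, and Fdx1 and Hsd11b1 lie at 0.02.

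Genes taken as markers of the adrenal cortex were set beside these values. Of 9 such genes outside the list, 3 were not well above background on any array. These were Cyp11b1 and Cyp11b2, which carry out the last steps to corticosterone and aldosterone, and Nr5a1, the factor that switches on steroidogenic genes. The other 6 entered the fit, and limma called 0 of them, beside 0.0745% of all rows (smallest adjusted p = 0.586). At an unadjusted p under 0.05 there were 0 of the 6, beside 13.5% of all rows, so counts of 0 in so few genes do not set them apart. Cyp21a1, the 21-hydroxylase, had levels of -2.00, -2.27 and -1.98 with p-nitroanisole, against -2.44, -2.32 and -2.05 with vehicle, a log2 difference of 0.18 (SE 0.13). Its second probe was not well above background on any array, so its 2 probes disagree on whether the transcript was measurable.

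The groups overlapped for each of the other tested adrenal cortex markers. Cyp17a1, the 17-hydroxylase, differed by -0.13 (SE 0.11) and Nr0b1, a repressor of Nr5a1, by -0.19 (SE 0.15). Cyp17a1 is not a sure marker of the adrenal cortex in the rat, though it stays in the counts, median and sums of this list. Cyp11b3, a close relative of Cyp11b1, differed by -0.07 (SE 0.28). Mgarp, a mitochondrial protein of steroidogenic tissue, differed by 0.11 (SE 0.23). Mrap, the accessory protein that carries Mc2r to the cell surface, was the brightest of these probes at 1.66, 1.97 and 2.06 with p-nitroanisole, against 1.75, 1.90 and 2.52 with vehicle, a log2 difference of -0.16 (SE 0.23). It is known in fat as well as in the adrenal.

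Their median log2 difference was -0.10. The summed level of all 13 probes, in multiples of the 75th percentile, was 3.92 to 4.87 with p-nitroanisole and 4.04 to 6.47 with vehicle. Without Mrap, which made up most of it, the sum was 0.693 to 0.759 with p-nitroanisole and 0.676 to 0.731 with vehicle. Of the genes on this list, 6 of 9, Cyp17a1 and Mrap among them, had a probe well above background on all 6 arrays. The other 3, Cyp11b1, Cyp11b2 and Nr5a1, did not reach that level on any array, nor did Star, Mc2r and Akr1b7. What part adrenal tissue has in the Hsd3b1 and Cyp11a1 signals was not tested beyond these values.

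**Figure D3:**
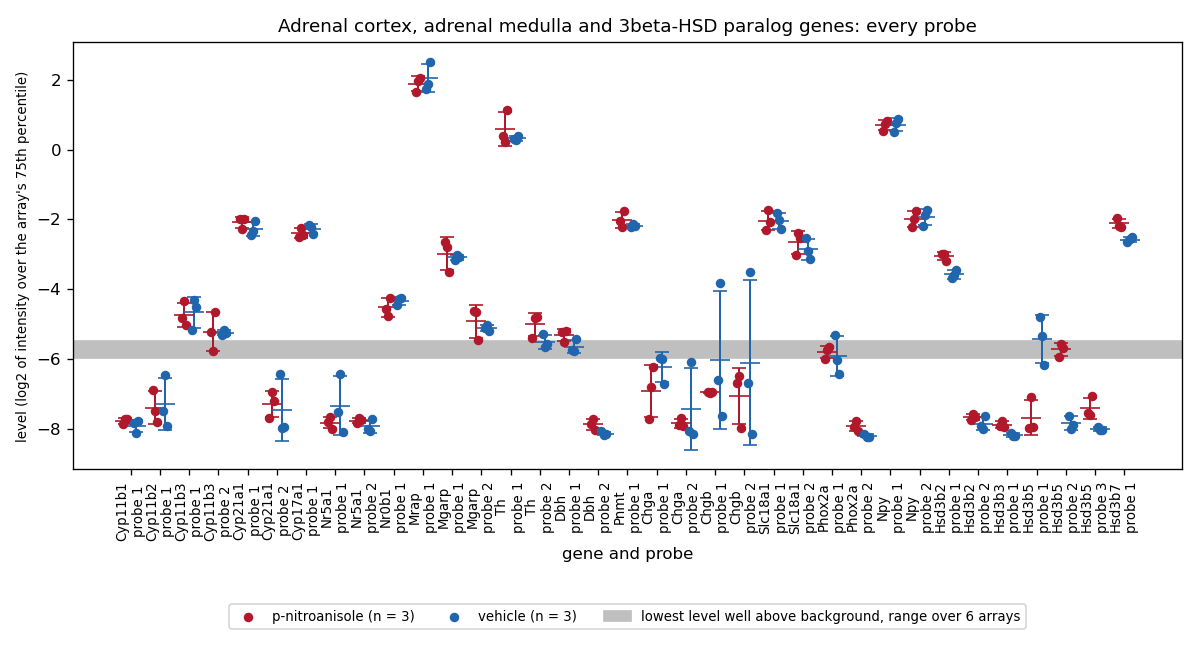
Level of every probe of the adrenal cortex, adrenal medulla and 3-beta-hydroxysteroid dehydrogenase paralog lists on each array (y axis, log2 of intensity over the array's 75th percentile), with p-nitroanisole left of vehicle, bars for the mean and SD (n = 3), and the grey band for the lowest level well above background. Cyp11b1, Cyp11b2 and Nr5a1 stay below the band in both groups, and the first Hsd3b2 probe and Hsd3b7 are higher with p-nitroanisole.

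Of 9 adrenal medulla markers, 8 had a probe, 4 entered the fit and limma called 0, beside 0.0745% of all rows, with 0 at an unadjusted p under 0.05, beside 13.5%. Th, the first enzyme of catecholamine synthesis, differed by 0.26 (SE 0.24), with 0.40, 0.22 and 1.14 in treated rats, against 0.31, 0.27 and 0.39 in vehicle rats, treated replicate 3 standing apart. A dimmer Th probe differed by 0.50 (SE 0.19), with overlapping groups. Pnmt, which makes adrenaline, differed by 0.17 (SE 0.12), the vesicle transporter gene Slc18a1 by 0.01 (SE 0.18) and the neuropeptide gene Npy by -0.02 (SE 0.13). The granule protein gene Chga was not well above background on any array. Dbh, which makes noradrenaline, and the neuronal factor gene Phox2a were near background and did not enter the fit.

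Chgb, a granule protein gene, was well above background on vehicle replicate 2 alone. Its first probe stood at -3.83 there and its second at -3.51, with all other arrays at -6.49 or below. Vehicle replicate 2 was also the lowest array on the brighter probe of Hsd3b1 and of Cyp11a1, but not on their second probes. The summed level of the medulla probes was 3.67 to 5.11 with p-nitroanisole and 3.67 to 4.09 with vehicle. The brightest probes, of Th and Npy, weigh most in this sum.

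The rat genes closest to Hsd3b1 were read next, since probes of one family can share sequence. In the RefSeq annotation Hsd3b1, Hsd3b3, Hsd3b2 and Hsd3b5 are neighbours on chromosome 2, and Hsd3b7, an enzyme of bile acid synthesis, lies on chromosome 1. Hsd3b2 had levels of -2.99, -2.99 and -3.18 with p-nitroanisole, against -3.68, -3.61 and -3.44 with vehicle. Its groups did not overlap, and its log2 difference of 0.52 (SE 0.10) missed the threshold (limma adjusted p = 0.146). Its second probe was not well above background on any array.

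Hsd3b7 gave a log2 difference of 0.46 (SE 0.09, limma adjusted p = 0.163), with groups that did not overlap. Groups that did not overlap, with treatment higher, as for Hsd3b2 and Hsd3b7, were found in 11.9% of all rows. Hsd3b3 was not well above background on any array. Hsd3b6, also on the paralog list, had no probe tied to it and was not measured. Hsd3b5 had 3 probes that disagreed. One was at -5.95, -5.56 and -5.68 with p-nitroanisole, against -7.63, -8.01 and -7.90 with vehicle, with none of them well above background. A dimmer one was at -7.56, -7.62 and -7.07 with p-nitroanisole, against -7.96, -8.04 and -8.05 with vehicle. Likewise none of these was well above background. Another was at -7.99, -7.10 and -7.97 with p-nitroanisole, against -4.80, -5.34 and -6.17 with vehicle. It was 1.16-fold lower with treatment when set against the background of the treated arrays. This value sets the mean level of the vehicle arrays, of which 2 of 3 were well above background, against the lowest level well above background on each treated array. The vehicle array at -6.17 was not well above background itself, so the value is not a strict bound. The probe sequences were not used here, so cross-binding within the family was not tested.

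Other genes of the pathway came from lists of 61 genes, 60 of them with a probe and 47 in the fit. Limma called 0 of the 47, beside 0.0745% of all rows. An unadjusted p under 0.05 was found for 13 of the 47, a larger share than the 13.5% of all rows. Of the 47, 30 log2 differences were above 0, and the median was 0.09, beside 0.01 over all rows. Groups did not overlap in 13 of the 47 that were higher, a larger share than the 11.9% of all rows. They did not overlap in 4 of the 47 that were lower, a smaller share than the 10.3% of all rows. These shares were not tested against each other.

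Cholesterol supply held 10 tested genes, 6 with differences above 0 and 4 below, with a median of 0.06. Scarb1, which takes up cholesterol from high-density lipoprotein, had levels of -0.20, -0.06 and 0.41 with p-nitroanisole, against -0.25, -0.59 and -0.79 with vehicle. It differed by 0.59 (SE 0.21, limma adjusted p = 0.319), and its other probes by 0.40 and 0.56. The groups did not overlap on any Scarb1 probe, and the gene missed the threshold over all rows. Of all rows, 11.9% were higher with groups that did not overlap.

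Of the 7 tested genes of electron transfer and cofactor supply, 4 were above 0, with a median of 0.14. Por, the reductase that feeds electrons to microsomal cytochromes P450, had levels of 3.75, 3.48 and 3.42 with p-nitroanisole, against 2.68, 3.25 and 2.80 with vehicle. Its difference was 0.64 (SE 0.18, limma adjusted p = 0.236). H6pd, which supplies NADPH to Hsd11b1 in the endoplasmic reticulum, differed by 0.19 (SE 0.09, limma adjusted p = 0.442). Of the regulators, 7 of 10 were tested, with a median of 0.01. Crem, a factor that responds to cyclic AMP, differed by 0.39 (SE 0.12, limma adjusted p = 0.269), and Nr4a1, an orphan nuclear receptor that ACTH induces, by -0.47 (SE 0.31, limma adjusted p = 0.552).

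Steroid conversion was the longest list, with 21 of 29 genes tested, 14 above 0 and 7 below, and a median of 0.09. Hsd17b1, which reduces estrone to estradiol, differed by 0.80 with a wide error (SE 0.67), since its vehicle arrays were scattered at 1.94, 0.32 and 2.99, against 2.71, 2.87 and 2.05 with p-nitroanisole. Hsdl2, a member of the same enzyme superfamily, differed by -0.36 (SE 0.13, limma adjusted p = 0.331). The smallest adjusted p on the list was that of Hsd17b7, chosen here after its values were seen, an enzyme that also acts in cholesterol synthesis, at 0.29 (SE 0.06, limma adjusted p = 0.184).

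Genes whose pattern over the 6 arrays was most like that of Hsd3b1 or Cyp11a1 were sought among 12194 other named genes. Likeness was the root mean square difference of the log2 levels after centring each gene on its own mean. This measure contains the difference between the groups and is a description. Nearest to Hsd3b1 were Epb42 at 0.21, a protein of the red cell membrane, the chemokine gene Ccl12 at 0.25, and Ube2c at 0.25 and Ube2t at 0.26, both ubiquitin-conjugating enzymes, followed by Fgf17 at 0.27. Nearest to Cyp11a1 were the chemokine gene Cxcl1 at 0.12, the growth factor gene Fgf17 at 0.19, the keratin gene Krt13 at 0.22, the stress-induced gene Gdf15 at 0.24 and the chemokine gene Ccl2 at 0.25. Fgf17 was on both lists. On vehicle replicate 2, Fgf17 at -6.20 and Krt13 at -6.58 lay below the lowest level well above background, -5.98, as did Cyp11a1 at -6.19. What part this has in their likeness to Cyp11a1 was not tested. Cxcl1 had levels of -2.51, -3.42 and -2.58 with p-nitroanisole, against -3.43, -4.61 and -3.74 with vehicle, with replicate 2 the lowest of each group, as for Cyp11a1.

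Markers of other cells were read on the same arrays. Of the red cell markers, all 4 tested were above 0 with a median of 2.00, and Alas2, which starts heme synthesis in erythroid cells, was higher by 1.91 (SE 0.14, limma adjusted p = 0.0404). The call of Alas2 was lost without any 1 of the 6 arrays, and in 11 of 20 alternatives in all, with adjusted p between 0.00725 and 0.202 and a difference of 1.80 to 2.09. Of these 20, the slide block, slide 1 alone and the fit without treated replicate 3 were 1 and the same fit. The red cell sum was 7.92 to 14.1 with p-nitroanisole and 2.27 to 3.15 with vehicle. It thus moved in the same direction as Hsd3b1 and Cyp11a1, and its part in their difference was not tested. Adipocyte markers gave a median of 0.02 over 5 tested genes, with Adipoq at -0.70 (SE 0.26, limma adjusted p = 0.332) and Cfd at 0.56 (SE 0.28, limma adjusted p = 0.445). Their sum was 1.24 to 2.01 with p-nitroanisole and 1.91 to 2.44 with vehicle, most of it from Adipoq. Sums of this kind weigh bright probes most and do not count cells. Of the Leydig cell markers Insl3 alone entered the fit, at 0.24 (SE 0.11, limma adjusted p = 0.425). Its groups did not overlap on this probe, as in 11.9% of all rows that were higher, but overlapped on its second, at 0.06. Lhcgr, like Chgb, was well above background on vehicle replicate 2 alone, at -4.25 on its brighter probe. The renal cortex markers gave a median of -0.03, with Slc22a6 at 0.18 (SE 0.06) and Nphs1 at -0.17 (SE 0.10), and none was called.

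The 2 higher genes kept their direction within the first slide and within row 1. No treated array shared both slide and row with a vehicle array, so position and treatment cannot be told apart. Within the first slide, which holds 3 vehicle and 2 treated arrays, Hsd3b1 differed by 1.42 and Cyp11a1 by 1.104. Within row 1 of the slides, which holds treated replicate 3 and the 3 vehicle arrays, they differed by 1.58 and 1.26. Leaving out each array in turn gave 1.18 to 1.70 for Hsd3b1 and 0.89 to 1.43 for Cyp11a1, the lowest of each being without vehicle replicate 2. Without treated replicate 1, Cyp11a1 differed by 0.94. Because the groups did not overlap, no such fit could turn these signs.

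**Figure D4:**
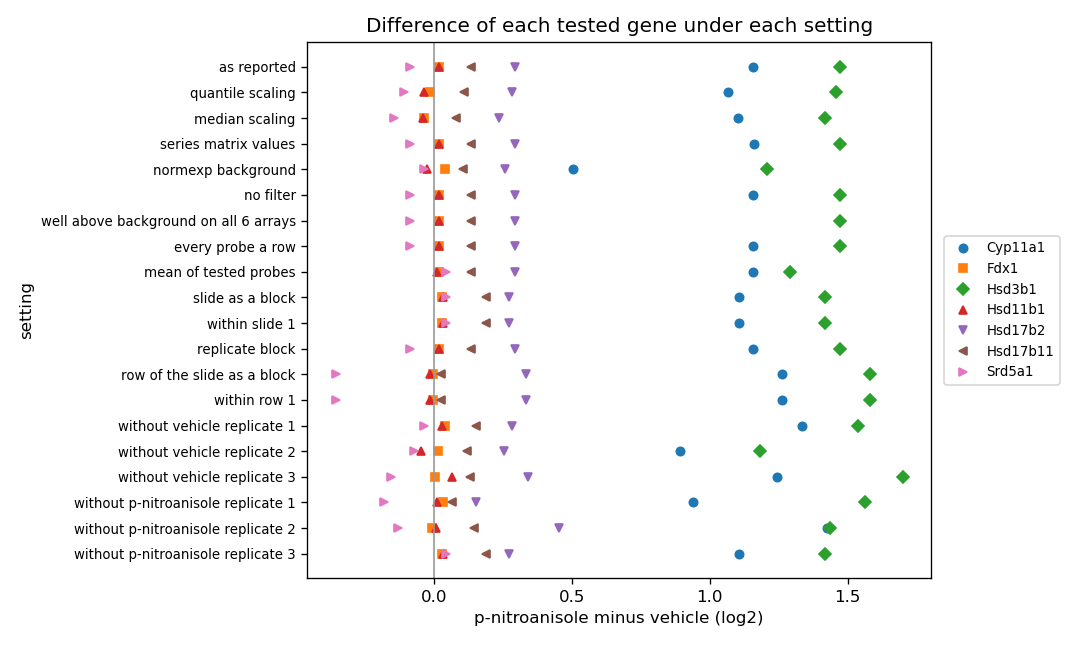
Log2 difference, p-nitroanisole minus vehicle (x axis), of each of the 7 tested genes under each processing setting (y axis). Hsd3b1 lies between 1.18 and 1.70 and Cyp11a1 between 0.50 and 1.43, while Fdx1 and Hsd11b1 lie on both sides of 0.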

How the data were processed

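RNA of 6 arrays, 1 per animal, was compared in 2 groups of 3. The deposited scanner files hold spot intensity. Per the file headers the scanner software was Feature Extraction 10.7.1.1 (10.7 per the submitters' processing notes), whose processed signal is corrected for background. The authors' deposited series matrix holds a linear signal equal to the processed intensity divided by 1 constant per array, as found by setting both side by side (largest deviation 0.00497% among probes above that constant), and has no centring by gene. Its column medians were 0.105 to 0.111. Deposited flags, scored 0 or 1 and treated as another kind of value, marked spots well above background.

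The log2 of each intensity minus the array's 75th percentile (877 to 1022) over 61537 probes, control spots left out, was fitted with limma 3.58.1 in R 4.3.3 (two-sided, Benjamini-Hochberg over all rows, threshold 0.05). The 41219 probes well above background on all 3 arrays of a group were tested; the brightest stood for a gene, giving 32203 rows, 12201 named genes and 20002 unnamed probes. Accessions matched RefSeq symbols for 28193 probes (45.81%), with assembly GRCr8, while the array design names rn4. The genes named besides the 10 are all those with a probe on the adrenal and paralog lists, called genes or, with none called, the 2 largest differences on other lists, and the 5 most alike in pattern. 1 cholesterol supply gene that this rule names is not reported here, though it stays in the counts. The members and lists were chosen with earlier results of these data known. Same-numbered replicates correlated at -0.01 to 0.04 in their deviations from group means, so the numbers were not taken to pair animals. The normexp alternative used median spot and background signals in place of mean signals. The procedure was tested on simulated data. The number of arrays limits the precision of every comparison.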

Additional observations from a re-analysis of the deposited data

How the results depend on the processing

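The number of rows that limma called, 24 as reported, was 19 with quantile scaling, 20 with median scaling, 22 with the series matrix, 33 when every one of the 6 arrays had to pass the background flag and 30 with every probe a row. It was 85 with the normexp background, 2 with no filter, 14 with the mean of tested probes, 316 with a trended robust variance, 9 with the slide as a block or within slide 1, and 0 at an adjusted p of 0.01. With the replicate block it was 1. Added after the data were seen, the row of the slide as a block gave 1000 and row 1 alone 0 (6628 at an unadjusted p under 0.05). Leaving out 1 array gave 0 to 9. It was 0 without vehicle replicate 2 or treated replicate 1, 1 without vehicle replicate 1, 5 without treated replicate 2, 7 without vehicle replicate 3 and 9 without treated replicate 3. The last is the same fit as the slide block and slide 1 alone, so the settings counted here are not all distinct. Alas2 was called in none of these fits that left out an array, nor with no filter, with the slide or the replicate block, within slide 1 or within row 1. Row 2 held treated replicates 1 and 2 and no vehicle array. The row block and row 1 alone therefore both set treated replicate 3 against the vehicle arrays. Each gave a difference of 1.58 for Hsd3b1 and 1.26 for Cyp11a1. These differences rest on 1 treated array, on slide 2, so nothing is read from the counts of the row block and of row 1 alone. What else lies behind the shifts in the counts was not tested. The 0 called pathway genes stayed at 0 in every setting. Most settings called few rows in all, so a count of 0 in so few genes says little. Differences of Hsd3b1, Cyp11a1, Hsd17b2 and Hsd17b11 kept their sign in all settings run, 19 of them and 18 for Cyp11a1. Cyp11a1 had no value when all 6 arrays had to be above background. With no filter, every probe a row or the replicate block, these differences were the same as reported, so such settings do not bear on the sign. Leaving out arrays could not turn the sign of Hsd3b1 or Cyp11a1, whose groups did not overlap. The count of settings is thus not read as support. Hsd17b11 lay between 0.03 and 0.19, and Hsd17b2 between 0.15 and 0.45. Fdx1 ran from -0.04 to 0.04, Hsd11b1 from -0.05 to 0.07 and Srd5a1 from -0.36 to 0.04. Cyp11a1, Star, Mc2r and Akr1b7 are limited by signal near background.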
